A study of Mus musculus with 18 samples.

Results

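Ribosome occupancy is the number of ribosome-protected fragments on an mRNA relative to the amount of that mRNA. Here it was followed from acute to chronic ER stress in MIN6 cells, a mouse insulinoma line that makes insulin. The groups differed in treatment alone, and the 3 treatments were DMSO for 18 h (control), 200 µM cyclopiazonic acid (CPA) for 1 h (CPA1) and 200 µM CPA for 18 h (CPA18). mRNA-seq and Ribo-seq libraries came from each treatment in 3 independent experiments. Of the 18 libraries, the 12 of CPA1 and CPA18 entered the comparison, which was the Ribo-seq to mRNA-seq ratio in CPA18 over the same ratio in CPA1, taken within each experiment. It covered the 6929 genes with at least 1 read in all 18 libraries, summed from 10163 of the 30741 RefSeq transcripts listed. MIN6 is an established tumour line, so the values describe that line and not islets.

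CPA blocks SERCA, the pump that loads the ER with calcium, and chaperones that need calcium then fail to fold secretory proteins. The unfolded protein response answers through PERK, IRE1 and ATF6. PERK phosphorylates eIF2α, which slows initiation on most mRNAs within minutes while a few mRNAs with upstream open reading frames (uORFs), such as Atf4, are spared. mRNAs of the translation machinery carry a terminal oligopyrimidine (TOP) motif, a run of C and T at their very 5′ end, and their entry into polysomes follows mTORC1 activity. Ribosome occupancy reads how many ribosomes an mRNA carries, from initiation and from elongation speed alike, so more ribosomes and slower ribosomes cannot be told apart.

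The CPA libraries held 1241570 to 4755030 reads in mRNA-seq and 168129 to 553842 in Ribo-seq. A single transcript, that of Lars2, took 53.5%, 38.1% and 8.27% of the mRNA-seq reads in CPA1 of experiments 1, 2 and 3, and 54.8%, 5.46% and 4.75% in CPA18. Because a share of this size moves every other gene's value, changes are given relative to the median gene of the same libraries unless stated otherwise. "Relative occupancy" is thus a gene's occupancy divided by that of the median gene. Each p-value, however, is of the change itself, before the median gene's change is subtracted. Titles and descriptions of 2 control libraries of experiment 2 name different assays, and they were placed by their titles. All 12 β-cell markers had a read in all 18 libraries. So did 2 of 11 markers of other islet endocrine cells, 1 of 14 of acinar and duct cells and 1 of 10 of fibroblasts and stroma. Markers without any read in the CPA libraries were 0 of the 11, 5 of the 14 (Prss1, Prss2, Pnlip, Amy2b and Cpa1) and 2 of the 10 (Col3a1 and Lum).

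mRNAs of ribosomal proteins and other genes of the TOP class are described below, and the starts of some of them are shown first. Each line gives 30 bases from 10 bases before the annotated start of the gene, 5′ to 3′ on the transcribed strand, from RefSeq on GRCm38.p6. Capitals mark a run of at least 8 C or T in a row. All were chosen by their values, the first 8 genes for a run and a high fitted change. Orc6 and Rfc3, 2 DNA replication genes, were chosen for a large fitted decrease and the lack of a run. The lines are therefore no comparison of mRNAs with and without a run.
Rps27, chr3:90213629-90213658, minus strand: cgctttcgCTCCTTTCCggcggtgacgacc
Rps26, chr10:128626487-128626516, minus strand: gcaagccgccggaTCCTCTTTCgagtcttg
Rpl27a, chr7:109519185-109519214, plus strand: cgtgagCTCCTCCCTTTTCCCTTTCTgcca
Rplp2, chr7:141447641-141447670, plus strand: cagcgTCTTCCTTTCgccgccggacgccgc
Rpl28, chr7:4792955-4792984, plus strand: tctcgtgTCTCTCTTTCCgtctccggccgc
Rpl13a, chr7:45128726-45128755, minus strand: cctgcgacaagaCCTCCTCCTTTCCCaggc
Eif3f, chr7:108934405-108934434, plus strand: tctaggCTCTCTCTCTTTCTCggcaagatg
Eef1a1, chr9:78481705-78481734, minus strand: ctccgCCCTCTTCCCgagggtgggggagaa
Orc6, chr8:85299622-85299651, plus strand: ccggcggtgtatagtggacggggcggggcg
Rfc3, chr5:151651189-151651218, minus strand: tttcgcgctcgcgggaaaactctactgtct

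In the median gene, ribosome occupancy changed from CPA1 to CPA18 by a log2 value of 0.16, -0.50 and 0.00091 in experiments 1, 2 and 3 (mean -0.11 ± 0.35, SD, n = 3), so its direction was not shared by the experiments. With library totals taken without Ins1, Ins2 and Lars2 it was 0.11, 0.18 and 0.0788 (mean 0.12 ± 0.0501, SD, n = 3), and with TMM factors 0.0286, 0.0433 and -0.0546, so the direction of the median gene depended on the scaling. mRNA-seq RPKM of the median gene was higher in CPA18 by 0.20, 0.81 and 0.46, and Ribo-seq RPKM by 0.34, 0.24 and 0.42. These values carry the share of Lars2 with them, and in experiment 2, where that share fell most, the mRNA-seq shift was highest. Around the median gene, the interquartile range of occupancy change was 1.20, 1.26 and 0.94 log2 units. Across genes, the changes of different experiments correlated weakly (Pearson r = 0.11, 0.034 and 0.057 over 6929 genes, and 0.22, 0.20 and 0.11 over the 2404 genes with at least 10 reads in each CPA library). Beside each list below stands the number of its genes that lay on 1 side of the median gene in all 3 experiments. In these bulk samples, fewer cells holding an mRNA and less of it per cell cannot be told apart.

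The cytosolic ribosomal proteins, which form the large and small subunits of the translating ribosome, stood higher in occupancy in CPA18 than in CPA1, relative to other genes, in each experiment. All 82 listed genes were detected, with at least 5 reads in each CPA library. Their median change exceeded that of the median gene by 0.46, 0.72 and 0.76 (log2). Of the 82, 72, 78 and 82 lay above the median gene in experiments 1, 2 and 3. In all 3 experiments 69 lay above and 0 below, while over all genes 15.3% lay above and 14.9% below. The 3 CPA18 values were all higher than the 3 CPA1 values in 34 of the 82 genes, against 4.88% of all genes. By edgeR's quasi-likelihood test, 31 were higher at an unadjusted p under 0.05, where 2.16% of all genes were, and 0 passed an adjusted p of 0.05. The number that passed depended on the scaling. It was 14 in edgeR with library totals without Ins1, Ins2 and Lars2 and 24 in DESeq2, with no ribosomal protein called lower by either, but 1 in edgeR with TMM factors, 0 with the median gene centred and 0 in limma at either pseudocount. With the totals without Ins1, Ins2 and Lars2, 0, 0 and 2 of them passed with experiment 1, 2 or 3 left out, 4 in a fit to the CPA libraries alone and 0 without pairing by experiment.

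The small subunit stood somewhat higher than the large one in each experiment. Medians were 0.62, 0.79 and 0.84 over the 33 small subunit genes and 0.38, 0.64 and 0.71 over the 49 large subunit genes, a difference that was not tested. Across the 82 genes, the mean change over experiments ran from -0.11 (Rpl36al) to 1.24 (Rps19), and 81 of the 82 means were above 0.

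**Figure D1:**
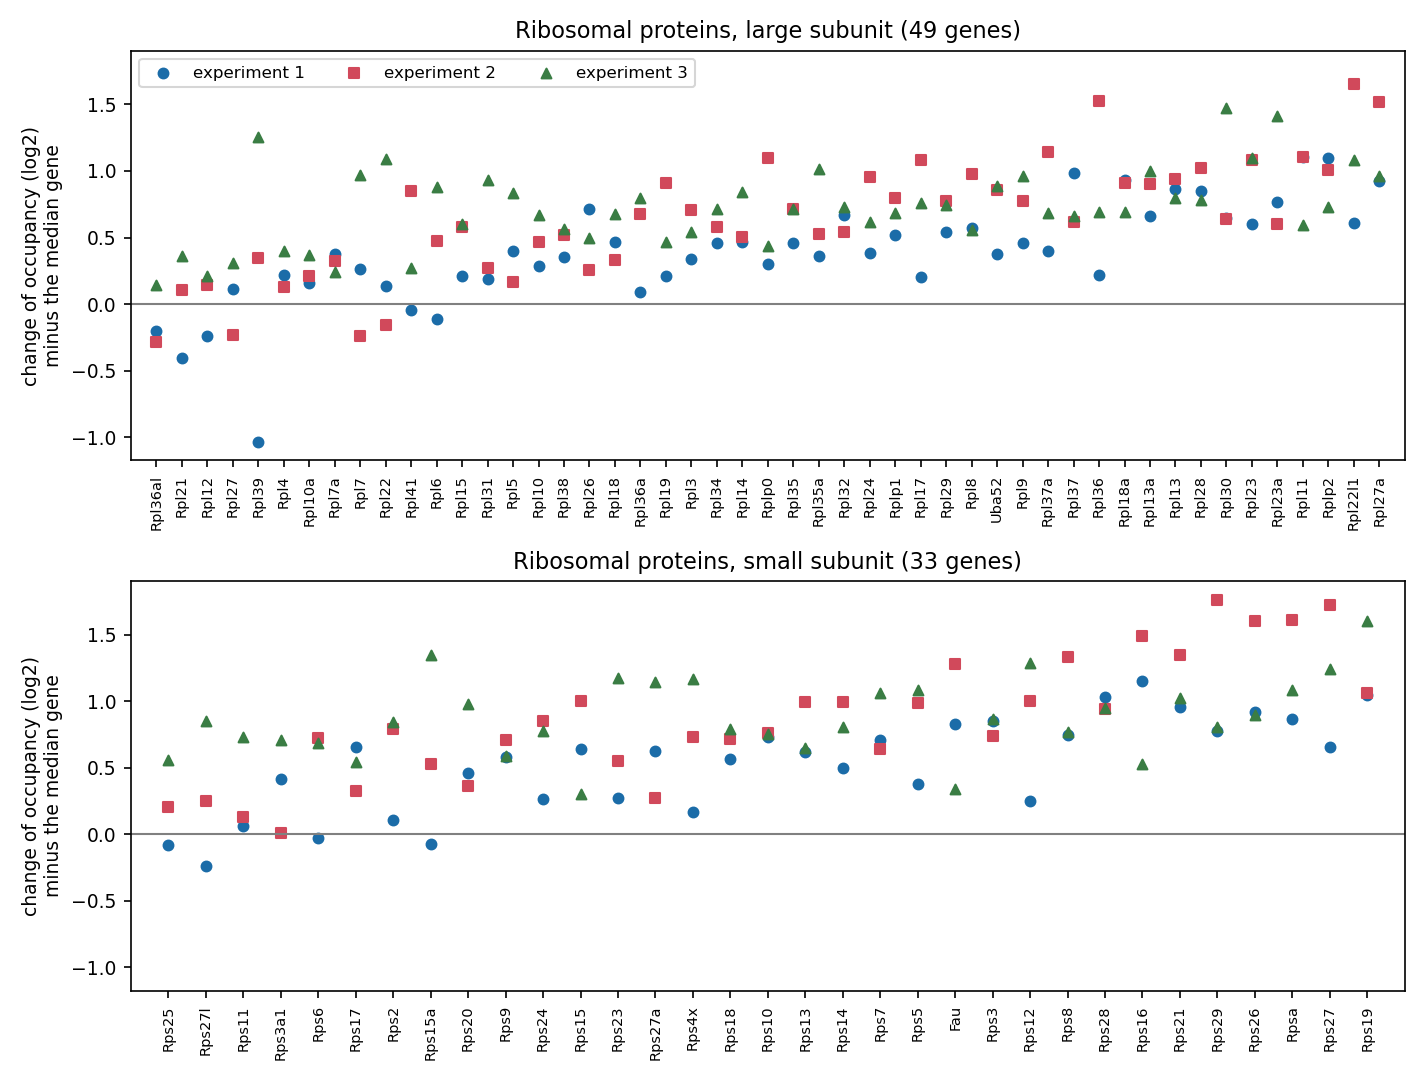
Change of ribosome occupancy from CPA1 to CPA18 (log2, minus that of the median gene) for each cytosolic ribosomal protein gene, the large subunit above and the small subunit below, genes ordered by their mean. Each of the 3 symbols is an experiment; the line at 0 is the median gene, and 81 of the 82 genes have a mean above it.

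Rps19, a small subunit protein needed to mature the 18S rRNA, had the largest change among them. Its relative occupancy was 0.453, 0.216 and 0.226 in CPA1 and 0.947, 0.468 and 0.708 in CPA18 of experiments 1, 2 and 3. Every CPA18 value lay above every CPA1 value, though narrowly, and at both times it was below the median gene. The fitted change was 1.22 ± 0.31 (SE), with an adjusted p of 0.268 in edgeR, 0.0075 in edgeR with totals without Ins1, Ins2 and Lars2, and 3.09e-05 in DESeq2. In the 2 assays by themselves, Rps19 mRNA was higher in CPA18 by 0.13 relative to the median gene and its footprints by 1.40. The edgeR adjusted p of 0.0298 and 4.03e-13 belong to the changes before those of the median gene, 0.50 and 0.33, were subtracted. Whether the 0.13 differs from 0 was not tested.

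Rps27, whose start with its run of 9 pyrimidines is printed above, went from 0.428, 0.162 and 0.297 to 0.682, 0.556 and 0.725, again without overlap of the times. Rps26, a small subunit protein at the mRNA exit channel, went from 0.949, 0.412 and 0.625 to 1.81, 1.30 and 1.20. Rpl27a, with the longest run of those shown at 20 bases, went from 0.538, 0.240 and 0.402 to 1.03, 0.713 and 0.812. In all 3 genes the values of the times did not overlap, and in CPA18 Rps26 stood above the median gene in every experiment and Rpl27a in experiment 1. Rplp2, a protein of the acidic stalk that recruits elongation factors, went from 0.509, 0.351 and 0.507 to 1.10, 0.734 and 0.869. Rpl13a went from 0.381, 0.241 and 0.229 to 0.610, 0.467 and 0.472. Rpl28 went from 0.557, 0.370 and 0.446 to 1.01, 0.781 and 0.794. In each of these 3 large subunit genes, too, the lowest CPA18 value exceeded the highest CPA1 value, and Rplp2 and Rpl28 stood above the median gene in CPA18 of experiment 1.

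Rpl36al stood at the other end. Its relative occupancy was 1.51, 0.851 and 0.679 in CPA1 and 1.33, 0.725 and 0.776 in CPA18, so the times overlapped, and the fitted change was -0.12 ± 0.30 (SE). It is a near copy of Rpl36a, which went from 0.579, 0.291 and 0.383 to 0.625, 0.483 and 0.689. Reads of such copies, and of the many ribosomal protein pseudogenes, can be assigned to either by the aligner, so values of single ribosomal proteins are less certain than the level of the group.

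The change was seen in both assays, and more in footprints. Relative to the median gene, mRNA-seq medians of the 82 genes changed by 0.44, 0.61 and 0.10, and Ribo-seq medians by 1.01, 1.34 and 0.95. The test called 77 of them higher and 0 lower in mRNA-seq, where 33.8% of all genes were called higher and 5.77% lower. In Ribo-seq it called all 82 higher, where 18.2% of all genes were called higher and 5.41% lower. With totals without Ins1, Ins2 and Lars2, 55 of the 82 were called higher and 0 lower in mRNA-seq, against 17.6% and 13.3% of all genes, and 82 higher in Ribo-seq, against 12.1% and 7.59% of all genes called higher and lower.

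**Figure D2:**
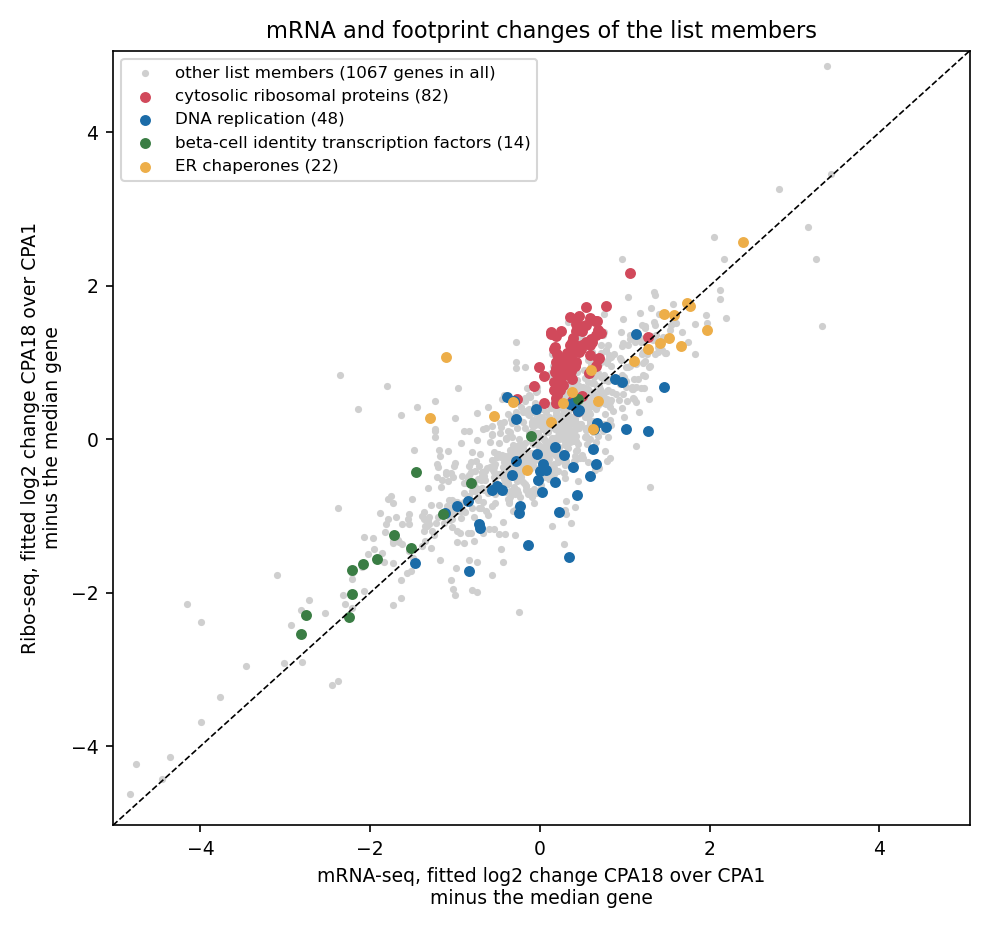
Fitted log2 change from CPA1 to CPA18 in mRNA-seq (horizontal) and Ribo-seq (vertical), each minus the median gene, for the 1067 detected genes of the lists. On the dashed line both assays change alike, and the 82 ribosomal protein genes (red) lie mostly above it, whereas most of the 48 DNA replication genes (blue) lie below it.

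The ribosomal proteins are abundant, and all 82 were in the highest of 5 equal bins of genes by mRNA level. The other 1304 genes of that bin had median changes of -0.10, -0.09 and 0.09, and the 1369 genes with the shortest transcripts, the lowest of 5 bins with ribosomal proteins left out, had -0.0043, 0.01 and 0.05. Among the other genes, occupancy change moved with level in experiments 1 and 2, from 0.36 and 0.50 in the lowest bin to -0.11 and -0.23 in the second highest, while in experiment 3 the 5 medians lay between -0.08 and 0.09.

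A pyrimidine run of at least 8 bases within 20 bases before to 30 bases after the annotated start, on the transcribed strand, was found in 35 of the 61 ribosomal protein genes with a start window (57.4%), in 1136 of 5590 tested genes (20.3%) and in 5811 of 27025 genes of the annotation (21.5%). The members with and without a run did not stand apart. Medians were 0.46, 0.71 and 0.78 over the 35 with a run and 0.39, 0.78 and 0.75 over the 26 without. Among genes that are not ribosomal proteins, 179 of 1101 with a run (16.3%) and 609 of 4428 without (13.8%) lay above the median gene in all 3 experiments. A match of these letters is a description and no proof of a TOP motif, which is set by the true first base.

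The control adds where the 2 times stood, although it shares the CPA1 libraries with the comparison and enters no test here. The median log2 relative occupancy of the ribosomal proteins in control, CPA1 and CPA18 was 0.31, -0.57 and -0.02 in experiment 1, -0.72, -1.43 and -0.54 in experiment 2 and -0.67, -1.19 and -0.39 in experiment 3. CPA1 was the lowest of the 3 treatments each time. CPA18 was above the control in experiments 2 and 3 and below it in experiment 1. The control value of experiment 2 rests on the 2 libraries that were placed by their titles.

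**Figure D3:**
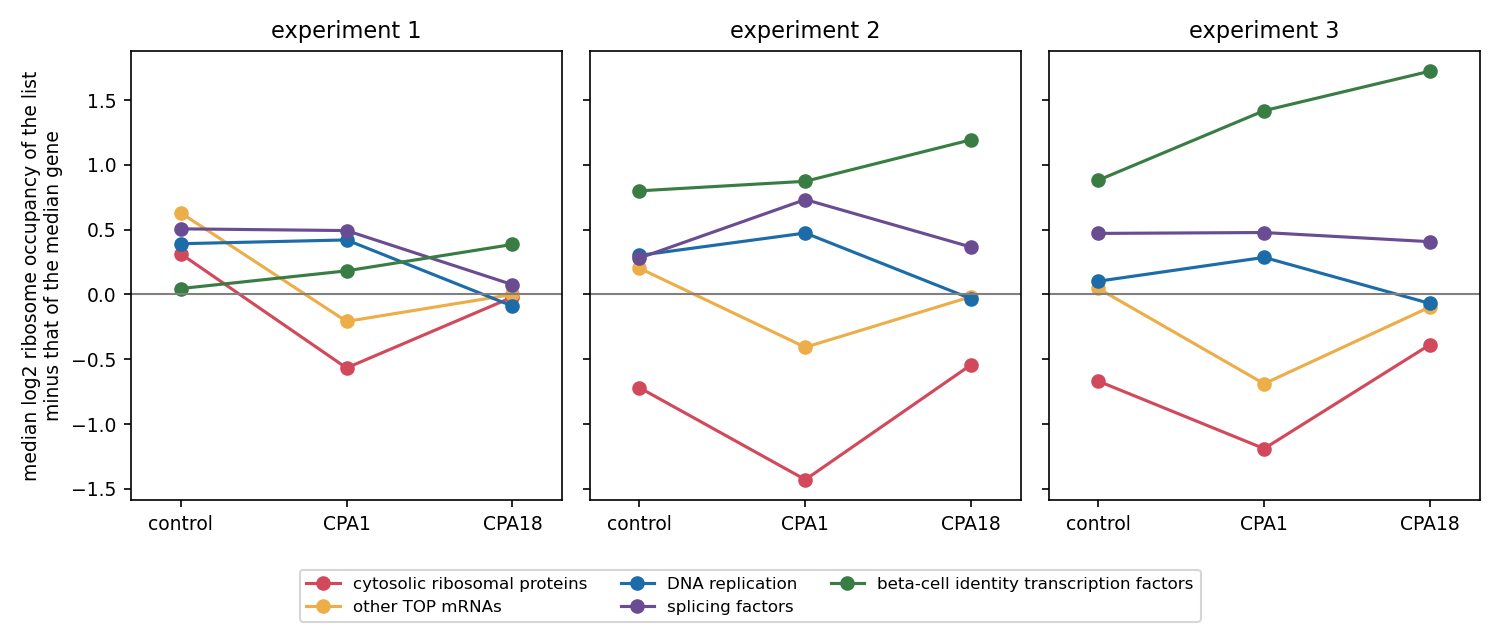
Median log2 ribosome occupancy of 5 gene lists, minus that of the median gene, in control, CPA1 and CPA18 of each experiment. Ribosomal proteins (red) and other TOP mRNAs (yellow) have their lowest value at CPA1 in each panel, while DNA replication genes (blue) have theirs at CPA18.

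The other TOP mRNAs, which encode elongation factors, some initiation factors and a few further proteins lay on the same side as the ribosomal proteins but less evenly. Medians of the 19 genes were 0.15, 0.37 and 0.76, and 9 lay above and 0 below the median gene in all 3 experiments. At an unadjusted edgeR p under 0.05, 3 were higher and 0 lower, where 2.16% and 3.82% of all genes were. The 5 elongation factor genes had medians of 0.58, 0.59 and 0.91, and the 14 others -0.05, 0.18 and 0.51. Of the 13 with a start window, 8 had a pyrimidine run.

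Eif3f, a subunit of the eIF3 initiation complex, had the largest fitted change of this list. Its relative occupancy was 0.627, 0.562 and 0.546 in CPA1 and 0.992, 1.37 and 1.01 in CPA18, with no overlap. The fitted change was 0.91 ± 0.32 (SE), with an adjusted p of 0.738 in edgeR and 0.0220 in DESeq2. Eef1a1, which brings aminoacyl-tRNA to the ribosome, went from 1.12, 1.15 and 0.620 to 1.25, 1.81 and 1.47. Eef1g, of the complex that recharges it, went from 0.587, 0.368 and 0.330 to 1.00, 0.575 and 0.642. Eef2, the translocase, went from 0.675, 0.493 and 0.415 to 0.790, 0.665 and 0.740. All 3 elongation factors were higher in CPA18 within each experiment, but for Eef1g and Eef2 the ranges of the times overlapped. Eif3l, another eIF3 subunit, had the smallest change, from 1.14, 1.07 and 0.706 to 0.583, 0.830 and 0.974, and was lower in experiments 1 and 2 and higher in experiment 3.

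The translation initiation factors outside the TOP class stood near the median gene. Medians of the 32 genes were 0.15, -0.16 and 0.05, with 6 above and 3 below in all 3 experiments. Eif3d, the eIF3 subunit that can bind caps, was lower in CPA18 in each experiment, from 1.40, 0.884 and 0.687 to 0.669, 0.439 and 0.660, with a fitted change of -0.75 ± 0.35 (SE) and an edgeR adjusted p of 0.738. Eif2s3x, the γ subunit of eIF2, went from 1.10, 1.11 and 3.76 to 1.63, 3.08 and 3.60. Mitochondrial ribosomal proteins, which translate the mitochondrial genome and carry no TOP motif as a class, had medians of 0.23, 0.10 and 0.18, with 17 of 72 above and 5 below.

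DNA replication genes were the lowest list in the plot of list medians, which is ordered by the mean over experiments. Medians of the 48 genes were -0.53, -0.53 and -0.20, with 18 below the median gene and 3 above it in every experiment, where the shares of all genes were 14.9% and 15.3%. In 9 of them all CPA18 values were below all CPA1 values, against 4.45% of all genes. At an unadjusted edgeR p under 0.05, 12 were lower, where 3.82% of all genes were, and 0 were higher. None of them passed the adjusted threshold by edgeR, while DESeq2 called Pcna lower. The 16 genes of the helicase and the origin had medians of -0.68, -0.95 and -0.20, and the 32 polymerases and other factors -0.40, -0.41 and -0.16.

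For these genes the medians of mRNA and footprints lay on different sides of the median gene in experiments 1 and 2. Relative to the median gene, the mRNA-seq medians were 0.20, 0.17 and -0.04 and the Ribo-seq medians -0.36, -0.59 and -0.12. The test called 21 of the 48 higher and 1 lower in mRNA-seq, and 4 higher and 4 lower in Ribo-seq, where 33.8% and 5.77% of all genes were called higher and lower in mRNA-seq and 18.2% and 5.41% in Ribo-seq. With totals without Ins1, Ins2 and Lars2 it called 11 higher and 4 lower in mRNA-seq and 3 higher and 6 lower in Ribo-seq, against 17.6% and 13.3%, and 12.1% and 7.59%, of all genes. Orc6, the subunit of the origin recognition complex whose start is printed above, had the largest decrease among members with at least 10 reads in each CPA library. Its relative occupancy was 1.77, 3.41 and 1.79 in CPA1 and 1.02, 0.859 and 1.08 in CPA18, without overlap. The fitted change was -1.21 ± 0.45 (SE), with an edgeR adjusted p of 0.670.

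Pcna, the sliding clamp of the polymerases, went from 2.14, 4.12 and 3.25 to 1.32, 2.18 and 2.30, and Mcm7, of the replicative helicase, from 1.62, 1.35 and 0.765 to 0.682, 0.626 and 0.764. Rfc3, of the clamp loader, went from 1.81, 1.28 and 1.22 to 0.971, 0.775 and 0.833. In Rfc3, and barely in Mcm7, all CPA18 values were below all CPA1 values, whereas those of Pcna overlapped through experiment 1. Rfc1, the large subunit of the same clamp loader, went the other way, from 1.36, 1.66 and 2.24 to 2.87, 3.37 and 4.67, and was the largest increase of the list (fitted 0.89 ± 0.50, SE, edgeR adjusted p = 0.860). Pcna, Mcm7 and Rfc3 were chosen after their values were seen.

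Cell cycle genes lay the same way only in part. Medians over the 76 genes were -0.18, -0.38 and -0.03. In all 3 experiments 19 were below and 9 above, where the shares of all genes were 14.9% and 15.3%. The 53 genes of mitosis, E2F and ubiquitin ligases had medians of -0.37, -0.33 and -0.20. The 23 cyclins and kinases had 0.09, -0.53 and 0.14, with 4 above and 4 below. Anapc7, of the anaphase-promoting complex, went from 1.47, 0.874 and 0.742 to 0.663, 0.420 and 0.447. Gsk3b, a kinase that marks cyclins for decay, went from 1.30, 1.02 and 3.74 to 1.20, 3.02 and 8.06. DNA repair genes had medians of -0.33, -0.02 and -0.58 over 16 genes, with 7 below and 1 above, and Msh6, of the mismatch sensor, went from 2.43, 2.66 and 8.66 to 1.25, 2.12 and 2.61. Splicing factors had medians of -0.22, -0.25 and -0.15 over 71 genes, with 20 below and 7 above. Srsf7, an SR protein that marks exons, was the smallest of them, from 1.92, 3.08 and 1.61 to 0.750, 0.863 and 1.01 without overlap (fitted -1.33 ± 0.44, SE, edgeR adjusted p = 0.406).

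**Figure D4:**
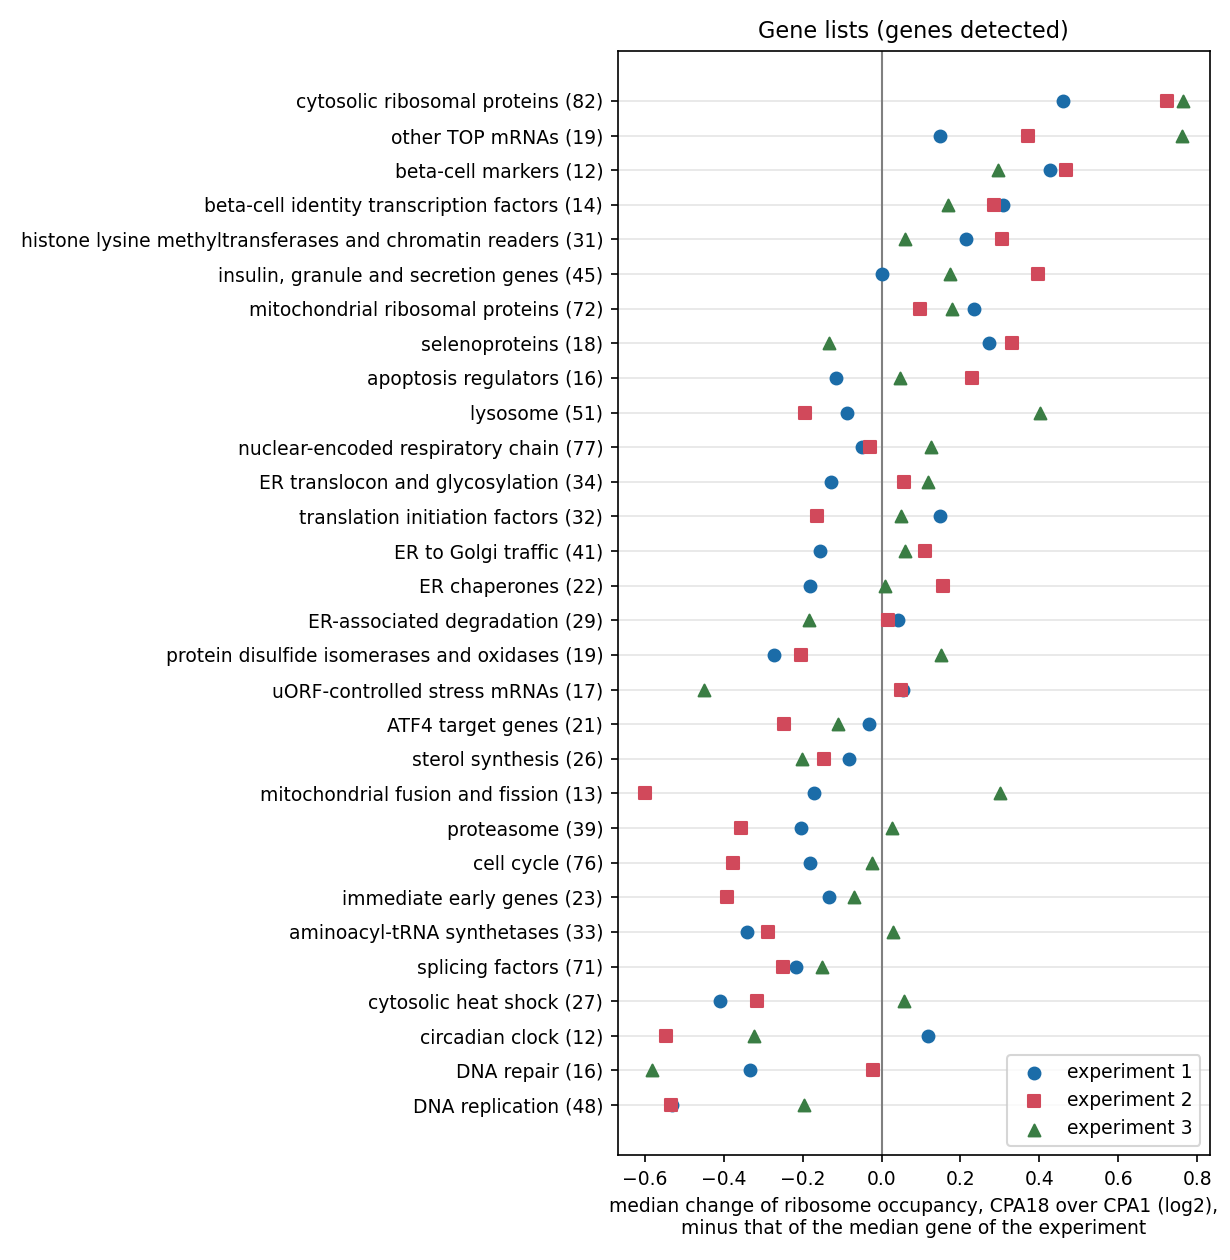
Median change of ribosome occupancy from CPA1 to CPA18 (log2, minus that of the median gene) of each list with at least 10 detected genes, replication-dependent histones left out, 1 symbol for each experiment and the number of genes in brackets. Ribosomal proteins are the top list and lie between 0.46 and 0.76; DNA replication is the bottom list and lies between -0.53 and -0.20.

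Many β-cell genes fell in mRNA and in footprints, while the median occupancy of the identity transcription factors lay slightly above that of the median gene. The 14 β-cell identity transcription factors had mRNA-seq medians of -1.76, -2.11 and -1.58 relative to the median gene and Ribo-seq medians of -1.27, -1.51 and -1.57. The test called 10 lower and 1 higher in mRNA-seq, where 5.77% and 33.8% of all genes were. In Ribo-seq it called 9 lower and 0 higher, where 5.41% and 18.2% of all genes were. Occupancy medians were 0.31, 0.29 and 0.17, with 6 of 14 above and 0 below in all 3 experiments, and 0 passed even an unadjusted p of 0.05 in edgeR. Pdx1, the homeobox factor that drives insulin transcription, had relative occupancies of 0.919, 1.27 and 1.35 in CPA1 and 1.42, 1.39 and 1.72 in CPA18. Mafa, which binds the same promoter, went from 0.549, 0.532 and 0.840 to 0.653, 0.599 and 1.09. Nkx6-1, which keeps the β-cell fate, went from 1.17, 2.90 and 6.81 to 1.91, 4.30 and 7.63. Each was higher in CPA18 within each experiment, with fitted changes of 0.31 ± 0.31, 0.22 ± 0.32 and 0.43 ± 0.33 (SE) that did not pass the test (edgeR adjusted p = 0.972, 0.995 and 0.938).

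Both insulin genes showed the same picture. Ins1 had relative occupancies of 2.03, 1.17 and 1.49 in CPA1 and 2.94, 1.92 and 2.04 in CPA18, and Ins2 1.47, 0.907 and 1.09 in CPA1 and 1.78, 1.26 and 1.38 in CPA18. Ins1 mRNA fell by 2.81 relative to the median gene and its footprints fell by 2.22 (edgeR adjusted p = 3.85e-10 and 4.61e-19), and Ins2 mRNA fell by 2.21 and its footprints by 1.82 (edgeR adjusted p = 0.000716 and 3.07e-13). Their occupancy changes of 0.54 ± 0.30 and 0.34 ± 0.32 (SE) did not pass (edgeR adjusted p = 0.884 and 0.966). The 2 insulin mRNAs are similar in sequence, and reads can fall on either.

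Over the 45 genes of insulin, granules and secretion, occupancy medians were 0.0019, 0.40 and 0.17, with 10 above and 5 below. The medians were -0.13, 0.42 and 0.29 over the 19 genes of hormones and processing, -0.24, -0.01 and 0.31 over the 11 of glucose sensing and excitability and 0.37, 0.45 and -0.03 over the 15 of exocytosis, so none of these groups stood on 1 side in every experiment. Of the 45, the test called 24 lower and 2 higher in mRNA-seq, where 5.77% and 33.8% of all genes were. In Ribo-seq it called 23 lower and 2 higher, where 5.41% and 18.2% of all genes were. Nnat, a small ER protein that helps the signal peptidase process preproinsulin, had the largest fitted change among the 35 members with at least 10 reads in each CPA library, from 0.610, 0.412 and 0.462 to 1.11, 0.832 and 1.88 without overlap. Its fitted change of 1.27 ± 0.30 (SE) had an adjusted p of 0.180 in edgeR, 0.0288 with totals without Ins1, Ins2 and Lars2, and 0.0202 in DESeq2. Nnat mRNA fell by 3.10 relative to the median gene and its footprints fell by 1.77 (edgeR adjusted p = 5.69e-17 and 6.32e-12). Cpe, the carboxypeptidase that trims proinsulin, was the smallest, from 1.03, 1.63 and 1.50 to 0.731, 1.03 and 1.08, with an adjusted p of 0.738 in edgeR and 0.0289 in DESeq2. Pcsk2, a prohormone convertase, went from 0.968, 0.868 and 0.628 to 0.895, 0.994 and 1.20, and Slc2a2, the glucose transporter, from 2.02, 3.01 and 3.56 to 8.61, 2.02 and 8.33 with as few as 3 reads.

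As a list, mRNAs spared by uORFs in the integrated stress response had no direction shared by the experiments. The 17 genes had medians of 0.05, 0.05 and -0.45. In all 3 experiments 5 lay below and 3 above, where 14.9% and 15.3% of all genes did. Within the list, occupancy was lower in CPA18 of each experiment for Atf4, Ppp1r15a and Ddit3. Reads were counted over whole transcripts, so footprints on the uORFs are part of these values. Atf4, the transcription factor of this response, had relative occupancies of 1.10, 1.32 and 1.12 in CPA1 and 0.922, 0.616 and 0.846 in CPA18, all CPA18 values being lower. Ppp1r15a (GADD34), the eIF2α phosphatase subunit that Atf4 signalling induces, went from 1.02, 1.13 and 1.42 to 0.651, 0.692 and 0.579, also without overlap. Their fitted changes were -0.61 ± 0.30 and -0.94 ± 0.31 (SE), with adjusted p of 0.738 and 0.403 in edgeR and 0.119 and 0.0202 in DESeq2.

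mRNA of both rose over the same interval, Atf4 by 1.23 and Ppp1r15a by 3.25 relative to the median gene, and their footprints rose by 0.67 and 2.35 (edgeR adjusted p = 2.54e-09, 8.78e-33, 1.21e-07 and 1.01e-22). Ddit3 (CHOP) went from 1.09, 0.702 and 0.979 to 0.829, 0.614 and 0.809, lower within each experiment though the times overlapped. Atf5 went from 0.629, 0.693 and 0.831 to 0.833, 0.603 and 0.632, and Ppp1r15b, the constitutive phosphatase subunit, from 0.770, 0.926 and 2.11 to 0.844, 1.76 and 1.70. These 2 had no direction shared by the experiments. Of 21 ATF4 target genes, 19 were called higher in mRNA-seq and 20 in Ribo-seq, where 33.8% and 18.2% of all genes were. Their occupancy medians were -0.03, -0.25 and -0.11, with 8 below and 3 above. Asns, asparagine synthetase, had the smallest fitted change among the 16 members with at least 10 reads in each CPA library (1.96, 1.83 and 1.12 to 1.01, 1.20 and 1.08) and Slc38a2, an amino acid transporter, the largest (1.75, 1.86 and 4.90 to 1.90, 4.09 and 8.53).

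Many genes of the ER lists rose in mRNA and footprints, while the occupancy medians of 5 of these lists lay between -0.27 and 0.16. Those of the UPR sensors ran wider, from 0.29 to -0.45. ER chaperones were called higher in 17 of 22 genes in both assays, where 33.8% of all genes were in mRNA-seq and 18.2% in Ribo-seq. Relative to the median gene, they had mRNA-seq medians of 1.24, 1.09 and 0.84 and Ribo-seq medians of 0.86, 1.47 and 0.91. Their occupancy medians were -0.18, 0.16 and 0.0080 (7 above, 5 below). Hspa5 (BiP), the main Hsp70 of the ER, had relative occupancies of 4.43, 6.46 and 13.1 in CPA1 and 3.72, 11.3 and 12.1 in CPA18, high at both times and with a fitted change of 0.11 ± 0.31 (SE). Among the 16 members with at least 10 reads in each CPA library, Creld2 had the smallest fitted change (0.907, 0.547 and 0.555 to 0.438, 0.423 and 0.471, without overlap) and Dnajc10, a reductase of the chaperone network, the largest (1.39, 1.05 and 1.40 to 2.32, 2.64 and 2.92, without overlap). Neither passed in edgeR (adjusted p = 0.815 and 0.871).

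The test called 12 of 19 protein disulfide isomerases and oxidases higher in mRNA-seq and 9 in Ribo-seq, and 23 and 17 of 29 genes of ER-associated degradation. It called 26 and 29 of 34 of the translocon and glycosylation, and 32 and 28 of 41 of ER to Golgi traffic. The shares of all genes were 33.8% and 18.2%. With totals without Ins1, Ins2 and Lars2 the counts were 14 and 15 for the chaperones, 9 and 8 for the isomerases and oxidases and 17 and 14 for degradation. They were 23 and 25 for the translocon and glycosylation and 22 and 24 for traffic. In that setting the shares of all genes were 17.6% and 12.1%.

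The 9 UPR sensors and their factors had medians of 0.29, -0.02 and -0.45, and 0 lay above and 1 lay below in all 3 experiments. The 1 was Xbp1, the mRNA that IRE1 splices, with 0.876, 0.919 and 0.734 in CPA1 and 0.566, 0.459 and 0.554 in CPA18. Those values did not overlap, and the fitted change was -0.71 ± 0.31 (SE, edgeR adjusted p = 0.738, DESeq2 adjusted p = 0.118). Ern1, which encodes IRE1α itself, went from 1.23, 1.24 and 2.17 to 1.06, 2.43 and 2.61. In ER-associated degradation the medians of 29 genes were 0.04, 0.02 and -0.18 (3 above, 5 below), and Sel1l, the scaffold of the HRD1 ligase, went from 1.68, 1.66 and 2.06 to 1.64, 4.02 and 3.47. Vcp, the ATPase that pulls substrates out, went from 2.17, 3.05 and 1.85 to 1.36, 1.62 and 1.66 without overlap (edgeR adjusted p = 0.738). Herpud1 went from 1.22, 1.42 and 1.27 to 1.08, 0.980 and 0.970, likewise without overlap.

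Other parts of the secretory pathway showed no common direction. The medians were -0.27, -0.21 and 0.15 over 19 protein disulfide isomerases and oxidases (2 above, 4 below). They were -0.13, 0.06 and 0.12 over 34 genes of the translocon and glycosylation (9 above, 5 below) and -0.16, 0.11 and 0.06 over 41 genes of ER to Golgi traffic (5 above, 5 below). P4hb, the isomerase PDI, went from 1.05, 0.829 and 0.578 to 0.838, 0.625 and 0.671. Ero1b, an oxidase enriched in the pancreas, went from 0.525, 0.541 and 0.784 to 0.643, 1.01 and 1.29, higher in each experiment. Stt3a, the catalytic subunit of the oligosaccharyltransferase, went from 1.36, 1.91 and 0.972 to 0.918, 0.818 and 0.870, lower in each, and Sec24a, of the COPII coat, from 1.47, 1.24 and 3.63 to 3.38, 5.19 and 5.71, higher in each. None of these 4 passed in edgeR (adjusted p = 0.921, 0.883, 0.738 and 0.815).

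Chromatin genes had medians above the median gene, though by little in experiment 3 and not among their better covered members, and several lists of protein turnover and synthesis lay below it in experiments 1 and 2. The 31 histone lysine methyltransferases and readers had medians of 0.21, 0.31 and 0.06 (11 above, 4 below). At an unadjusted edgeR p under 0.05, 6 of them were higher, where 2.16% of all genes were. Over the 6 members with at least 10 reads in each CPA library, the mean of the 3 medians was 0.0226, against 0.19 over all 31, and the 13 readers had medians of 0.16, 0.20 and -0.01. Genes in the lowest bin by mRNA level had 0.36, 0.50 and -0.05, and the part of level in this result was not tested. Kmt5c, which trimethylates H4K20, went from 4.94, 2.18 and 24.0 to 14.8, 32.7 and 27.9 with as few as 9 reads, and its gain was nearly absent in experiment 3. The proteasome had medians of -0.20, -0.36 and 0.03 over 39 genes (4 above, 10 below) and the aminoacyl-tRNA synthetases -0.34, -0.29 and 0.03 over 33 (3 above, 9 below). Cytosolic heat shock genes had -0.41, -0.32 and 0.06 over 27 (2 above, 5 below) and sterol synthesis -0.08, -0.15 and -0.20 over 26 (1 above, 8 below). Insig1, the sterol-regulated anchor of SREBP processing, was lower in each experiment (0.520, 0.709 and 0.942 to 0.326, 0.562 and 0.734).

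The respiratory chain had medians of -0.05, -0.03 and 0.12 over 77 genes (14 above, 11 below) and the lysosome -0.09, -0.19 and 0.40 over 51 (8 above, 4 below). Mitochondrial fusion and fission had -0.17, -0.60 and 0.30 over 13 (1 above, 2 below) and selenoproteins 0.27, 0.33 and -0.13 over 18 (4 above, 1 below). Apoptosis regulators had -0.12, 0.23 and 0.05 over 16 (3 above, 3 below). Immediate early genes had -0.13, -0.39 and -0.07 over 23 (2 above, 5 below) and clock genes 0.12, -0.55 and -0.32 over 12 (0 above, 2 below). Uqcr10, a small subunit of complex III, was the largest of the respiratory chain and was higher within each experiment, from 1.21, 0.690 and 0.561 to 1.93, 1.75 and 1.21 (fitted 0.99 ± 0.35, SE, edgeR adjusted p = 0.738, DESeq2 adjusted p = 0.0640). Mfn1, a mitofusin, went from 1.50, 1.82 and 6.85 to 0.671, 0.635 and 3.11 with as few as 1 read. The 36 replication-dependent histone genes, whose mRNAs have no poly(A) tail and share reads among copies, had medians of -0.46, 1.72 and -0.55, experiment 2 alone being positive.

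edgeR called 5 genes changed in occupancy, 4 higher in CPA18 (0.0577% of 6929) and 1 lower (0.0144%). Nr1d1 (chr11:98767932-98775377), which encodes the clock repressor REV-ERBα, was the gene called lower. Its relative occupancy was 1.59, 3.34 and 1.42 in CPA1 and 0.601, 0.409 and 0.540 in CPA18, without overlap, from 11 reads or more. The fitted change was -1.98 ± 0.44 (SE, edgeR adjusted p = 0.0231), while its mRNA rose by 1.30 relative to the median gene (edgeR adjusted p = 1.58e-07) and its footprints had a change of -0.62 (edgeR adjusted p = 0.573). The call was made in 7 of 20 fits. It was not made with TMM factors (edgeR adjusted p = 0.127), with totals without Ins1, Ins2 and Lars2 (0.0761) or with experiment 2 left out (fitted -1.35 ± 0.51, SE, edgeR adjusted p = 0.999), and DESeq2 gave it no adjusted p. The transcript overlaps 269 bases of Thra on the opposite strand, and reads of the 2 genes there cannot be told apart unless the counting used strand.

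The 4 genes called higher had low or highly uneven occupancies. Lars2 (chr9:123366927-123462675), the mitochondrial leucyl-tRNA synthetase, had 0.0170, 0.00615 and 0.202 in CPA1 and 0.0320, 0.159 and 0.566 in CPA18 (fitted 2.44 ± 0.46, SE, edgeR adjusted p = 0.00749). Tmem38b (chr4:53825988-53862019), an intracellular cation channel of the ER, had 0.0137, 0.00792 and 0.448 in CPA1 and 0.0273, 0.615 and 1.25 in CPA18 (fitted 2.95 ± 0.56, SE, edgeR adjusted p = 0.00749). In both, the values of different experiments at 1 time differed more than the times within experiment 1. Gm20594 (chr6:79818031-79818364) had 0.0812, 0.0728 and 0.305 in CPA1 and 0.696, 0.378 and 1.22 in CPA18, without overlap (fitted 2.48 ± 0.36, SE, edgeR adjusted p = 3.92e-05). Cdyl2 (chr8:116568723-116732991), a chromodomain protein, had 3.50, 0.622 and 8.88 in CPA1 and 14.8, 22.2 and 70.0 in CPA18 (fitted 3.11 ± 0.67, SE, edgeR adjusted p = 0.0371). The Cdyl2 values rest on 1, 11 and 3 mRNA-seq reads in CPA18 of experiments 1, 2 and 3. Of 20 fits, 7 called Lars2, 6 Tmem38b, 14 Gm20594 and 6 Cdyl2. Without experiment 2, Lars2 and Tmem38b had fitted changes of 1.10 ± 0.39 and 1.21 ± 0.37 (SE, edgeR adjusted p = 0.846 and 0.807), and with totals without Ins1, Ins2 and Lars2 their edgeR adjusted p was 0.126 and 0.219. The Cdyl2 call was lost without experiment 2 or 3 (edgeR adjusted p = 0.846 and 0.338), and that of Gm20594 without experiment 1 (edgeR adjusted p = 0.0639).

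**Figure D5:**
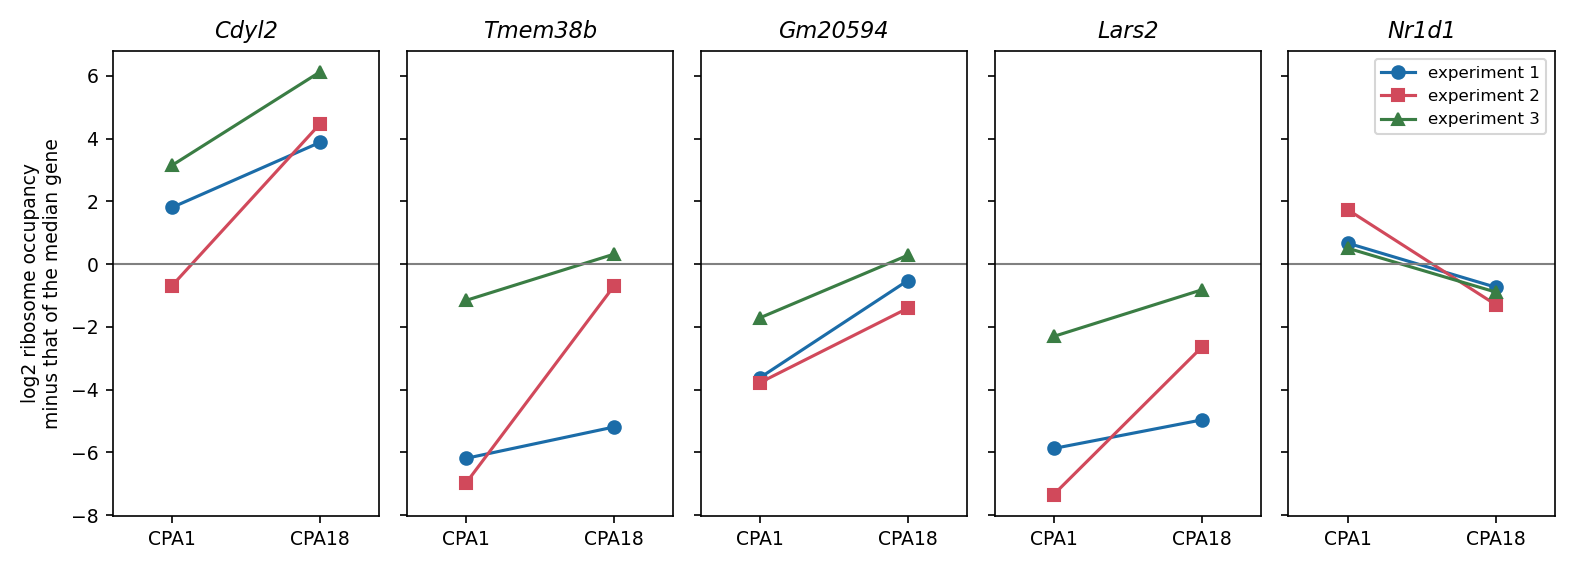
Log2 ribosome occupancy, minus that of the median gene, in CPA1 and CPA18 of each experiment for the 5 genes called by edgeR. Lines join the times of 1 experiment; the line at 0 is the median gene. Nr1d1 falls in all 3, and Lars2 and Tmem38b lie far apart between experiments.

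For these transcripts the sequence bears on what was counted. Gm20594 is 90.3% identical over 321 of its 334 bases to the mitochondrial 16S rRNA gene mt-Rnr2, with 65 identical bases in a row. Tmem38b holds a stretch of 120 bases within its 3′ UTR that is 95.8% identical to the 5S rRNA gene n-R5s100. With the 5S gene n-R5s136 it shares 71 identical bases in a row. In the 2 lines of shared sequence, 30 bases from within each identical run are printed, both partners having the same letters.
Gm20594 and mt-Rnr2, chrM:2119-2148, plus strand: acctttcagtgaagaggctgaaatataata
Tmem38b and n-R5s136: ggttagtacttggatgggagaccgcctggg
Cdyl2 shares at least 28 bases at 95% identity or more with 103 other detected transcripts. For Lars2 no match of that kind was found. Searched were the annotated rRNA genes, the mitochondrial genome and the transcript with most reads of each detected gene, and no other sequence. In CPA1, Lars2 took 53.5%, 38.1% and 8.27% of the mRNA-seq reads but 1.64%, 0.363% and 1.685% of the Ribo-seq reads. What its mRNA-seq reads derive from was not tested. How many reads of these genes came from the sequences they share was not tested.

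Past the called genes, the largest increases among genes with at least 10 reads in each CPA library and the same side of the median gene in each experiment were, after Gm20594 and Lars2, Chst11, Dsg2, Wdr89, Tcea1, Fras1, Nnat, Rps19 and Ncam1. Wdr89, a WD-repeat protein, went from 0.405, 0.309 and 0.557 to 1.36, 0.975 and 1.25 without overlap. Its fitted change of 1.43 ± 0.34 (SE) had an adjusted p of 0.138 in edgeR, 0.0075 with totals without Ins1, Ins2 and Lars2 and 0.000393 in DESeq2, and its footprints rose by 1.91 relative to the median gene (edgeR adjusted p = 1.59e-14). Tcea1, the elongation factor TFIIS of RNA polymerase II, went from 1.03, 0.787 and 0.798 to 2.10, 1.47 and 3.38. Dsg2, a desmosomal cadherin, went from 1.79, 2.77 and 3.23 to 2.64, 12.7 and 12.9, and Ncam1, a neural adhesion molecule, from 2.37, 3.49 and 5.58 to 4.38, 10.8 and 12.4. Fras1, an extracellular matrix protein, went from 0.778, 2.69 and 2.66 to 2.01, 6.27 and 6.94, and Chst11, a chondroitin sulfotransferase, from 1.58, 4.13 and 2.81 to 1.70, 10.8 and 20.1. In Dsg2, Ncam1, Fras1 and Chst11 the values of the times overlapped, and experiment 1 was the lowest at both times.

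The largest decreases included, after Nr1d1, Srsf7, Txnip, Nfkbib, Orc6, Klf10, Cops4, Fkbp5 and Pak1ip1. Txnip, the thioredoxin-binding arrestin that glucose induces, went from 0.760, 1.25 and 1.02 to 0.424, 0.540 and 0.422 without overlap (fitted -1.25 ± 0.47, SE, edgeR adjusted p = 0.699). Nfkbib, an inhibitor of NF-κB, went from 2.54, 1.91 and 1.33 to 0.882, 0.837 and 0.646, also without overlap. Klf10, an early-response zinc finger factor, went from 2.11, 4.29 and 4.66 to 0.558, 2.70 and 2.12, and Cops4, of the COP9 signalosome, from 2.26, 1.20 and 0.886 to 0.902, 0.484 and 0.626. Fkbp5, an Hsp90 cochaperone, went from 1.01, 0.817 and 1.14 to 0.520, 0.669 and 0.402, and Pak1ip1, a nucleolar WD-repeat protein, from 1.63, 3.57 and 1.93 to 1.16, 1.17 and 1.08. The values of the times overlapped in Klf10 and Cops4 and not in Fkbp5 and Pak1ip1. The mRNA of Nfkbib and Pak1ip1 rose by 1.51 and 0.89 relative to the median gene (edgeR adjusted p = 1.36e-08 and 0.000115), with footprints that did not pass (edgeR adjusted p = 0.127 and 0.675).

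The genes that passed differed between scalings. With totals without Ins1, Ins2 and Lars2, edgeR called 20 genes higher (0.289%) and 0 lower, of which 14 were ribosomal proteins and the others included Gm20594, Cdyl2, Nnat and Wdr89. DESeq2 called 33 higher (0.476%) and 6 lower (0.0866%), of which 24 were ribosomal proteins, all higher, and Cpe, H3f3b, Pcna and Ppp1r15a were among the lower ones. Rps27rt, a copy of the Rps27 sequence outside the list, was called higher in both. A fit to the CPA libraries alone called 8 higher (0.115%) and 1 lower, with the 5 called genes Cdyl2, Gm20594, Lars2, Tmem38b and Nr1d1 among them. Fitted without pairing libraries by experiment, edgeR called 0 genes, with 95 at an unadjusted p under 0.05 and 415 with the pairing.

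Occupancy was also taken as mean Ribo-seq RPKM over mean mRNA-seq RPKM of the 3 experiments, without a test. For CPA18 over CPA1, 821 genes lay above 0.6 (log2, 11.8%) and 1208 below -0.6 (17.4%). The median gene, here at -0.10, was not subtracted. Which side held more genes depended on the scaling. It was 1128 above and 848 below with TMM factors, and 1474 and 615 with totals without Ins1, Ins2 and Lars2. Of the 821, 435 had the same sign in each experiment (53.0%), and of the 1208, 715 did (59.2%). Ribosomal proteins gave 31 of the genes above the threshold and 0 of those below, and DNA replication genes 2 above and 23 below.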

How the data were processed

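mRNA-seq (poly(A) RNA, fragmented) and Ribo-seq (RNase I, monosomes) of 18 libraries were used. Reads were quality- and length-filtered by the authors and aligned with Bowtie2 to the mouse RNA reference (GRCm38), and the authors deposited raw counts per RefSeq transcript, the same as RPM of the aligned total, and RPKM, which divides by transcript length too. Transcripts were summed to genes through RefSeq. A total over the whole library was the library size.

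Occupancy was Ribo-seq RPKM over mRNA-seq RPKM within an experiment. Changes were tested on the deposited counts with edgeR 4.0.16 in R 4.3.3 (quasi-likelihood, interaction of assay and treatment over 18 libraries, block for each experiment and assay, Benjamini-Hochberg over 6929 genes, threshold 0.05). The test is of the change itself, and printed fitted changes have the median gene's change subtracted (-0.11 for occupancy, 0.50 for mRNA-seq, 0.33 for Ribo-seq). Alternatives were TMM, DESeq2 1.42.0, limma 3.58.1 on log2(RPKM + 0.5) and log2(RPKM + 1), other totals, filters and transcripts. Totals without Ins1, Ins2 and Lars2 were combined with other choices after the data were seen. Depth ranged from 168129 to 4755030 reads per library, which limits low genes most. The scripts were tested on simulated data.

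Libraries were paired by the numbers that the labels give to independent experiments. Deviations of CPA1 and CPA18 of the same number correlated across genes at 0.69, 0.12 and 0.62 in mRNA-seq and 0.18, 0.077 and 0.16 in Ribo-seq. Different numbers gave -0.66 to 0.38 and -0.14 to 0.0040, the highest being CPA1 of experiment 3 with CPA18 of experiment 2.

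Genes were named if called, if among the 10 largest increases or decreases with at least 10 reads in each CPA library and the same sign relative to the median gene in each experiment, if largest or smallest of a list by fitted change among members with that many reads, or if on a short list of stress, secretory and β-cell genes set by name. Others (Rps27, Rps26, Rpl27a, Rplp2, Rpl28, Rpl13a, Rpl36a, Eef1a1, Eef1g, Eef2, Pcna, Mcm7, Rfc3) were chosen after their values were seen. Some genes that the rule names are not reported here. The members and lists were chosen with earlier results of these data known. Of 1287 list entries, 43 were matched through older symbols and 1 had no match, and 1067 of 1268 distinct genes were detected. Sequences are from RefSeq, GRCm38.p6, and shared stretches were searched with BLAST 2.17.0. Figures were made with matplotlib 3.10.9 in Python 3.11.15.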

Additional observations from a re-analysis of the deposited data

How the results depend on the processing

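Calls for single genes depended on the processing. Against 5 genes called in occupancy, the count was 0 without the block for experiments, 3 with TMM, 39 with DESeq2, 20 with totals without Ins1, Ins2 and Lars2, 1 with the median gene centred, 10 without the filter (17208 genes), 3 with at least 10 reads in each CPA library (2404 genes), 0 with limma at either pseudocount (494 and 510 at an unadjusted p under 0.05), 9 with CPA libraries alone, and 1 to 9 with an experiment left out. The fewest came without experiment 2, where Gm20594 alone was called. With totals without Ins1, Ins2 and Lars2 it was 0 without the block, 7 with CPA libraries alone and 0 to 7 with an experiment left out, the 0 without experiment 1.

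The 2743 mRNA-seq calls, of 6929 genes, became 150 without the pairing, 1645 with DESeq2 and 1311 to 2544 with an experiment left out. Of the 2404 genes with at least 10 reads in each CPA library, 1325 were called. With the smaller totals they became 332 without the block and 1429, 1508 and 1358 without experiments 1, 2 and 3. The 1637 Ribo-seq calls became 1333 without the block, 960 with DESeq2 and 1068 to 1178 with an experiment left out, and with the smaller totals 1074 without the block and 969, 857 and 1055 without experiments 1, 2 and 3. Genes past 0.6 numbered 1474 above and 615 below with the smaller totals, and 779 to 1364 above and 894 to 1890 below with an experiment left out. Among the 2404 genes with at least 10 reads they numbered 119 and 236.

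List medians, which are taken relative to the median gene, cannot move with TMM or other totals. Under the 5 settings that can move them, they moved by less than the spread between experiments in 153 of 160 cases. The others were 0.0226 for histone methyltransferases and readers, -0.72 for the clock, -0.17 for apoptosis regulators and 0.30 for β-cell markers with at least 10 reads, and -0.13 for splicing factors, 0.0854 for mitochondrial ribosomal proteins and 0.28 for apoptosis regulators with the transcript of most reads.

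Of the genes named by rule, 18 fitted changes turned sign, none of them called. These were Bhlhe41 (0.0848), Derl2 (0.24) and Hmgb1 (-0.0190) with the transcript of most reads, and Egr1 without the block (-0.0216) and with limma at a pseudocount of 0.5 (-0.12). With an experiment left out, the fitted changes spanned -0.37 to 0.0609 for Atf5, -0.13 to 0.0295 for Derl2, -0.0178 to 0.38 for Ebp, -0.51 to 0.40 for Egr1, -0.00751 to 0.52 for Ern1, -0.0442 to 0.57 for Gcg, -0.25 to 0.28 for Hmgb1, -0.19 to 0.27 for Hspa5, -0.28 to 0.0741 for Isl1, -0.0588 to 0.37 for Krt7, -0.12 to 0.47 for Ppp1r15b, -0.64 to 0.22 for Selenos and -0.17 to 0.18 for Wfs1. The cause was not tested for any of these shifts. DESeq2 gave no adjusted p for Nr1d1 and Cdyl2. Ribo-seq depth limits low genes, and 34.7% of genes had at least 10 reads in each CPA library.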
